A study of Caenorhabditis elegans with 12 samples.

Results

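The later step of adult ageing, from day 3 to day 7 of adulthood, was examined in whole *C. elegans* worms that carry the *glp-4(bn2)* allele. Messenger RNA of day 7 adults (2 samples) was set against that of day 3 adults (2 samples), which are 4 of the 12 samples of the series. Of 19997 listed genes, 13222 were tested. Adults of day 1 (2 samples) of the same genotype served to tell whether a gene changed in the later interval alone or turned back from the level it had reached on day 3. The other 6 samples, wild-type (*eri-1(mg366)*) and *daf-2(e1370)* mutant adults that also carry *eri-1(mg366)*, both on day 1 (3 samples each), were used for a check of germ cell transcripts alone.

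All *glp-4* groups shared the genotype *glp-4(bn2)*, a dose of 50 µM FUDR, a drug that blocks DNA synthesis and thereby the production of progeny, and an adult temperature of 20 °C, and each sample held at least 80 worms. *glp-4* encodes a valyl-tRNA synthetase, and at the restrictive temperature the temperature-sensitive *bn2* allele arrests the proliferation of germ cells, so that the adults consist largely of somatic tissue. The sources differ on larval growth: the labels state a single cool temperature, and the methods of the study state a restrictive one for *glp-4* larvae. These accounts were not reconciled here. The allele is a point mutation, so the level of its own transcript checks nothing. The study collected worms in triplicate, while the tables analysed here hold 2 samples per age, and nothing states that these came from separate cultures. All p-values therefore measure the spread between these samples, which may be technical.

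Many genes that move in adult worms belong to the intestine, the large organ that digests bacteria, stores fat, detoxifies, secretes antimicrobial proteins and makes yolk. Yolk proteins, the vitellogenins, are loaded into oocytes in fertile hermaphrodites, and continue to be made in worms without germ cells. Insulin/IGF-like signaling (IIS), which runs from the receptor DAF-2 through the kinases AGE-1, PDK-1, AKT-1 and AKT-2 to the transcription factor DAF-16/FOXO, controls many of these intestinal genes. Cell division, by contrast, has ended in the adult soma, and genes for DNA replication and mitosis are used mainly by germ cells and, in the intestine, for rounds of DNA replication without division during larval growth.

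The day 7 libraries held 4538353 and 5216982 counts, against 9037955 and 7889153 counts on day 3, and the day 1 libraries held 10407141 and 12836836. Levels are given as CPM (a gene's count scaled to a fixed library size) after TMM normalisation, whose factors were 1.278 and 1.268 on day 7, against 0.8677 and 0.9244 on day 3. A detection floor of 3 counts equals 0.575 to 0.661 CPM on day 7, against 0.332 and 0.380 CPM on day 3. These floors are scaled by library totals without TMM factors, unlike the levels, and allow for counting error only. The 50 most abundant genes took 25.6% and 25.0% of the counts on day 7, against 36.5% and 33.4% on day 3. Each age had 2 samples, so single values are given in place of means, and log2FC stands for the log2 fold change of day 7 against day 3 with its standard error unless another contrast is named. Markers of neurons, body wall muscle, intestine, somatic gonad and coelomocytes were all detected in the *glp-4* samples. Of 17 germline markers, 16 were far lower in *glp-4* than in wild-type worms on day 1 (median log2 fold change of the 17 markers -6.55), which matches the labelled genotype.

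On day 7, 1878 genes were higher and 2435 were lower than on day 3 (quasi-likelihood test of edgeR, Benjamini-Hochberg adjusted p under 0.05). These are 32.6% of the genes tested, 14.2% higher and 18.4% lower. The change was at least 2-fold for 917 of the higher and 1056 of the lower genes. In the earlier interval, day 3 against day 1, 54.1% of the genes were called. Samples of day 7 and day 3 did not overlap for 67.8% of the genes. The direction of the calls rested on the scaling. With TMM factors 43.5% of the called genes were higher on day 7, and the median log2FC over all genes was 0.01. With upper-quartile factors these values were 55.9% and 0.12. With library totals alone they were 84.4% and 0.51, and on the log2(TPM + 1) scale, tested with limma, 75.5% and 0.30. Unless another scaling is named, log2 fold changes and calls below are therefore relative to the median gene under TMM scaling. Families that change sign under another scaling are named as such. Sums in TPM carry no TMM factors, so they include the general shift seen on the log2(TPM + 1) scale (median 0.30).

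Genes were sorted into 4 classes by their calls in both intervals, which share the day 3 samples. Noise in those samples pushes the 2 changes in opposite directions, which favours calls of opposite sign. Its part in the counts was not tested. Late-only genes were called between day 7 and day 3, were not called between day 3 and day 1, and differed between the intervals in a test of the difference itself. This class held 252 genes that rose (1.91% of those tested) and 341 that fell (2.58%). Without the test of the difference, it would have held 795 and 606 genes. Turn-back genes were called in both intervals with opposite signs: 939 genes (7.10%) rose by day 3 and fell by day 7, termed up then down, and 384 genes (2.90%) fell by day 3 and rose by day 7, termed down then up. Among the 939 up-then-down genes, 380 no longer differed from day 1 by the test on day 7, 374 were still above their day 1 level and 185 were below it. Among the 384 down-then-up genes, 238 did not differ from day 1 by the test, 113 were still below and 33 were above it. The remaining calls included 699 genes that rose (5.29%) and 890 that fell (6.73%) in both intervals. The median log2 fold change of day 7 against day 3 was 1.07 and -1.09 in the rising and falling late-only classes, -0.98 in the up-then-down class and 0.80 in the down-then-up class.

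**Figure D1:**
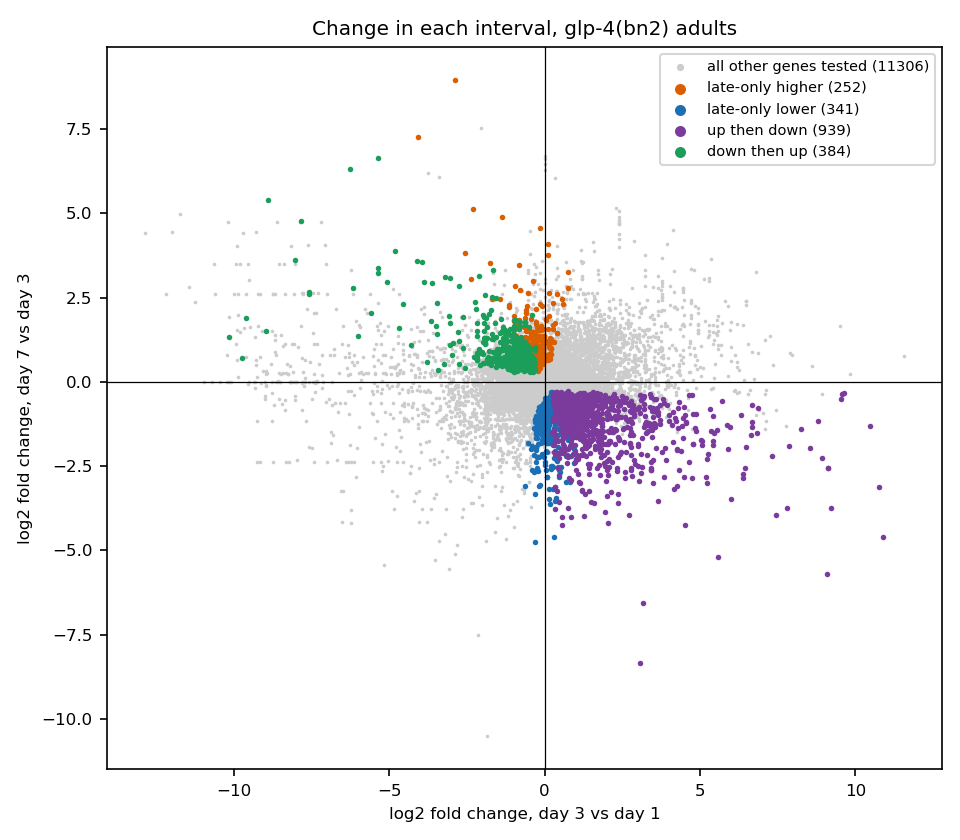
Log2 fold change of day 7 against day 3 (vertical axis) against that of day 3 against day 1 (horizontal axis) for each of the 13222 genes tested, coloured by class. The 939 up-then-down genes fill the lower right and the 384 down-then-up genes the upper left, while most late-only genes (252 higher, 341 lower) lie near the vertical line at 0. Both axes share the day 3 samples.

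Among late-only genes with a gene-class name, a mean of at least 5 CPM and no overlap of day 7 and day 3, the largest rise was that of cyp-13B1 (WBGene00008519, chromosome X, 13406674 to 13409643, positions in the WBcel235 assembly), a cytochrome P450. It had 4.92 and 4.83 CPM on day 1, 6.0 and 4.53 CPM on day 3 and 103.6 and 76.5 CPM on day 7. The 2 earlier ages overlapped and day 7 stood far above both (log2FC 4.09 ± 0.20, edgeR adjusted p = 4.65e-09, test of the difference between intervals adjusted p = 3.41e-06). The lysozyme gene lys-3 (WBGene00003092, chromosome V, 10282100 to 10283544) had 31.1 and 28.2 CPM on day 7, against 3.96 and 5.77 CPM on day 3, with 5.89 and 1.73 CPM on day 1 (log2FC 2.61 ± 0.35, edgeR adjusted p = 5.58e-05). The patched-related transmembrane protein gene ptr-17 (WBGene00004231, chromosome I, 12835115 to 12843331) had 19.9 and 26.1 CPM on day 7, against 4.60 and 3.71 CPM on day 3 (log2FC 2.46 ± 0.25, edgeR adjusted p = 3.29e-06). The genes idpp-8 and bigr-1 also rose (log2FC 3.25 and 2.33), but their spans overlap genes on the other strand (gcy-5 and lir-3). The unstranded library kit cannot assign reads from a shared stretch to a strand, and whether exons overlap was not examined. The same limit holds for other genes named here, which overlap a gene on the other strand: abf-2, akt-1, aldo-2, asp-4, cct-1, cth-2, ctsa-1.2, dhs-3, fat-5, fip-2, gst-22, hcp-1, lys-8, mcm-4, ncl-1, nspa-8, pck-2, pdk-1, pod-2, pole-1, puf-12, rrp-1, tps-2, tre-4, trx-3, ttr-51, twk-34 and ugt-22.

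Among late-only genes that fell, grd-3 (WBGene00001692, chromosome IV, 3439655 to 3440453), a member of the hedgehog-related groundhog family, had 44.2 and 71.01 CPM on day 1, 55.9 and 70.97 CPM on day 3 and 5.87 and 5.6 CPM on day 7 (log2FC -3.46 ± 0.25, edgeR adjusted p = 1.41e-07). The invertebrate-type lysozyme gene ilys-5 (WBGene00017691, chromosome X, 6533490 to 6536840) had 23.3 and 45.3 CPM on day 7, against 335 and 352 CPM on day 3, and its 392.3 and 458 CPM on day 1 lay above both (log2FC -3.31 ± 0.21, edgeR adjusted p = 3.45e-08). The cuticle collagen gene col-181 (WBGene00000754, chromosome X, 12104930 to 12106102) had 3365 and 4773 CPM on day 1, 4580.2 and 4494 CPM on day 3 and 459 and 551 CPM on day 7 (log2FC -3.17 ± 0.16, edgeR adjusted p = 6.19e-09). The lack of overlap between day 7 and day 3 was a condition for naming these genes. The serine carboxypeptidase gene ctsa-1.2 and the glucuronosyltransferase gene ugt-43 fell (log2FC -3.05 and -2.83).

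Turn-back genes were ranked, under the same conditions, by the smaller of their 2 absolute log2 fold changes, and the first up-then-down genes were nspa-8, scl-20, spp-2, cest-1.1 and fipr-26. The caenopore gene spp-2 (WBGene00004987, chromosome X, 7315995 to 7316818) encodes a small saposin-like protein of the kind that punctures bacterial membranes, and had 12.7 and 19.6 CPM on day 1, 178 and 229 CPM on day 3 and 17.6 and 17.4 CPM on day 7. The rise and the fall were nearly equal (log2 fold changes 3.64 and -3.54, edgeR adjusted p = 7.04e-10 and 7.67e-09), and the day 7 and day 1 samples overlapped. The carboxylesterase gene cest-1.1 (WBGene00011362, chromosome V, 14163255 to 14166730) had 9.85 and 5.56 CPM on day 1, 133 and 141 CPM on day 3 and 14.3 and 15.6 CPM on day 7 (log2FC -3.19 ± 0.18, edgeR adjusted p = 1.53e-08). The secreted SCP-like protein gene scl-20 (WBGene00013972, chromosome V, 18732798 to 18734481) was barely detected before, at 0.107 and 0.182 CPM on day 1, and had 5.35 and 8.78 CPM on day 7, against 101.5 and 91.0 CPM on day 3 (log2FC -3.75 ± 0.19, edgeR adjusted p = 5.74e-09). Among the down-then-up genes, the thioredoxin gene trx-3 (WBGene00019717, chromosome IV, 4487028 to 4489000) had 53.4 and 44.6 CPM on day 1, 4.85 and 5.77 CPM on day 3 and 52.3 and 40.0 CPM on day 7 (log2FC 3.12 ± 0.20, edgeR adjusted p = 4.2e-08). It again overlapped its day 1 samples, though its span overlaps that of gbb-2 on the other strand. The cadherin gene cdh-7 and the intermediate filament gene ifp-1 recovered far less of their early loss, with 156 and 148 CPM on day 1, 2.94 and 3.43 CPM on day 3 and 13.99 and 12.4 CPM on day 7 for ifp-1 (log2FC 2.05 ± 0.20, edgeR adjusted p = 2.73e-06), and 32.3 and 23.4 CPM on day 1, 0.638 and 0.686 CPM on day 3 and 5.35 and 8.63 CPM on day 7 for cdh-7 (log2FC 3.38 ± 0.43, edgeR adjusted p = 2.95e-05).

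**Figure D2:**
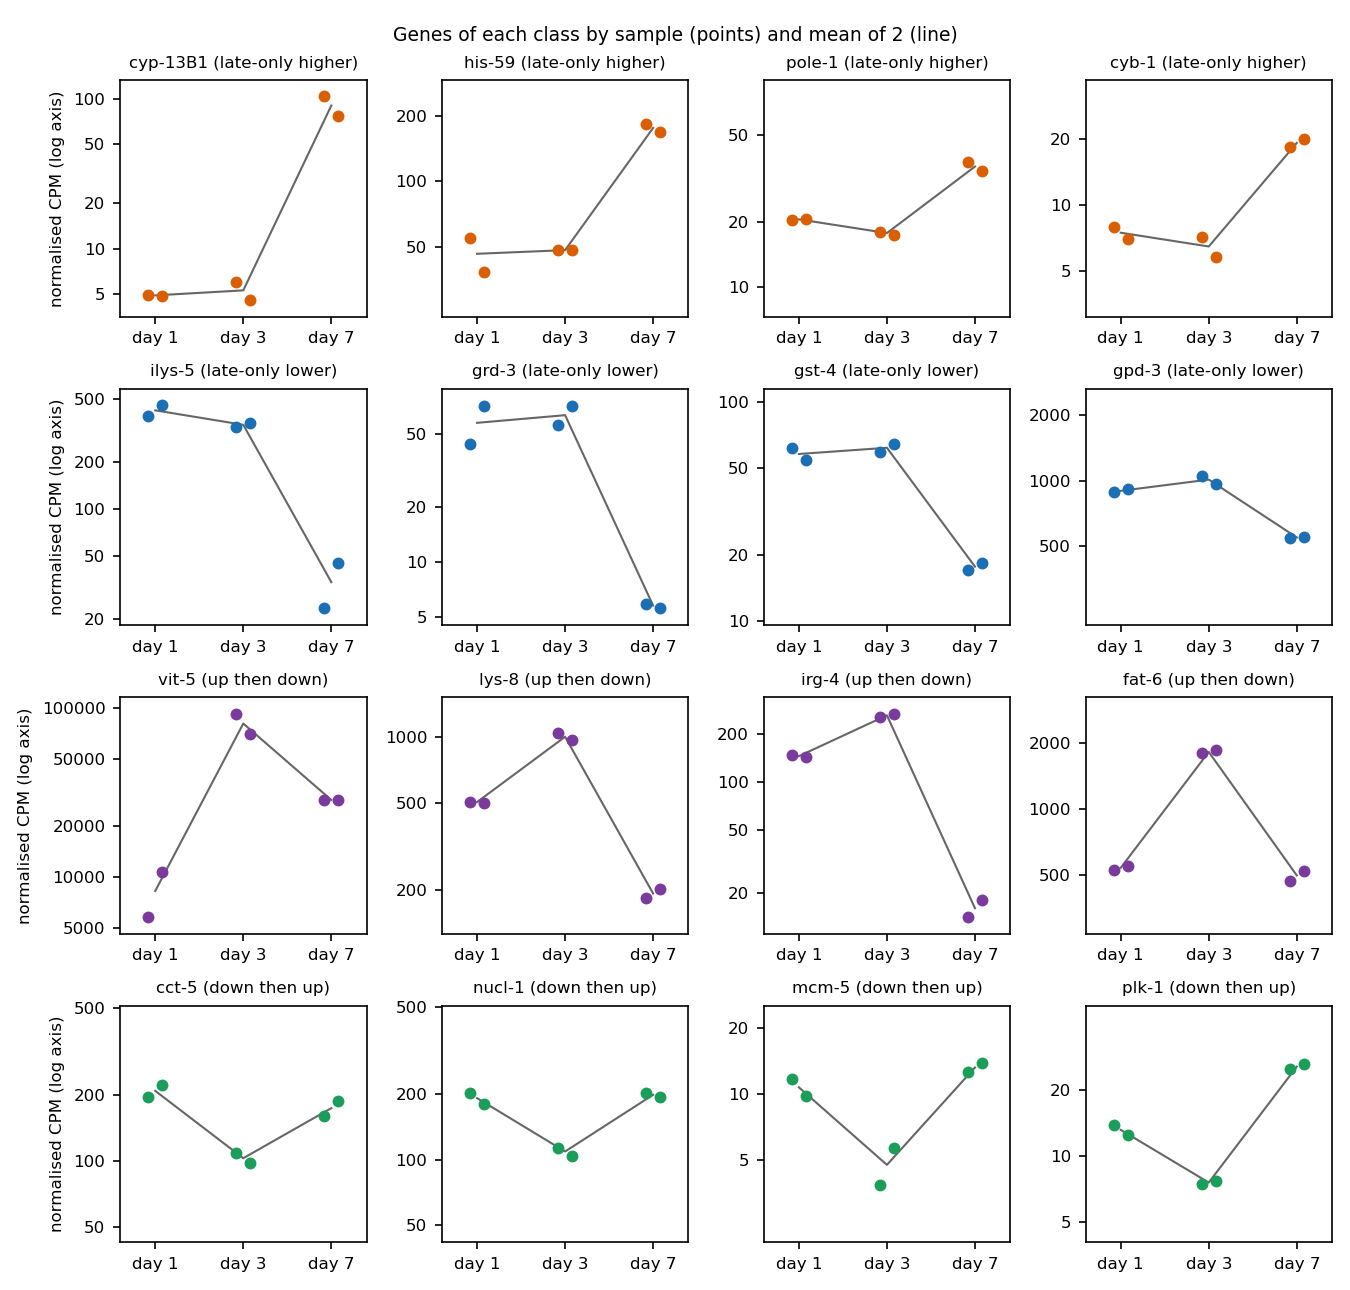
Normalised CPM (vertical log axes, each with its own range of at least 10-fold) of 16 genes on day 1, day 3 and day 7, with 1 point per sample and a line through the means of 2 samples; rows show the late-only higher, late-only lower, up-then-down and down-then-up classes. In the 2 upper rows day 7 lies apart from the earlier ages, as in cyp-13B1 with 103.6 and 76.5 CPM on day 7, against 6.0 and 4.53 CPM on day 3, and in the 2 lower rows day 3 is the turning point, as in fat-6 and plk-1.

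Families and pathways were described from 85 gene lists, and those in the plot of medians hold at least 4 members of 1 class at no less than 2 times the share of that class over all genes tested. They were picked by how their members moved, so the counts describe them and support nothing further. Over all genes tested, 14.2% rose and 18.4% fell. The class shares were 1.91% late-only higher, 2.58% late-only lower, 7.10% up then down and 2.90% down then up.

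**Figure D3:**
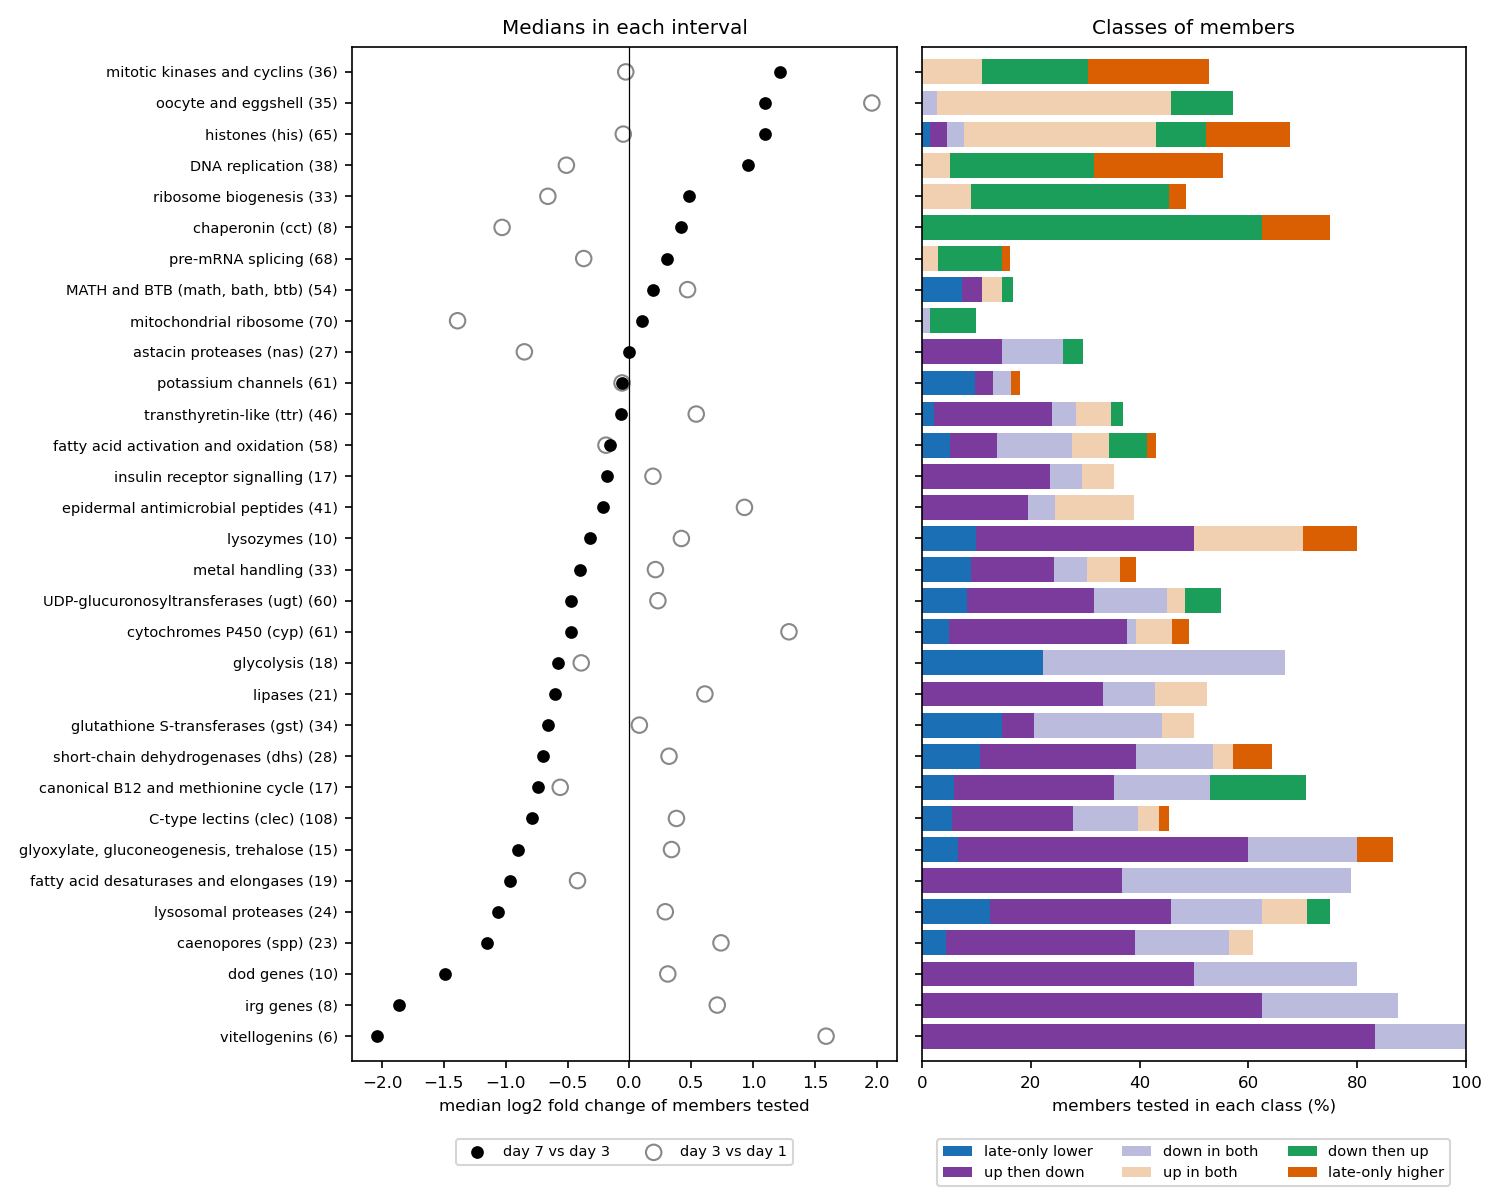
Left, median log2 fold change of the tested members of each list (number tested in brackets) for day 7 against day 3 (filled) and day 3 against day 1 (open); right, percent of tested members in each class, where the rest of the bar to 100% was not called on day 7 or fell in no class. Vitellogenins, irg genes, dod genes and caenopores have the lowest day 7 medians (-2.04, -1.86, -1.49 and -1.15) with medians above 0 in the earlier interval, and mitotic, histone, oocyte and DNA replication lists the highest.

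Yolk and fat synthesis genes fell in the later interval. Of 16 markers of the intestine, vitellogenins among them, 10 fell and 2 rose. Their sums were 24331.0 and 23157.8 TPM on day 7, against 51318.4 and 39354.9 TPM on day 3. The sums of the 6 vitellogenins, given below, come near these values. The marker sums therefore mostly reflect yolk transcripts and do not gauge the other markers. The part of the amount of intestine in the falls of these markers and of the other intestinal families was not tested. All 6 vitellogenins were lower on day 7 than on day 3, and 5 of them (vit-3, vit-4, vit-5 and vit-6 among them) had risen before. The list median was -2.04, against 0.01 over all genes. The most abundant of them, vit-5 (WBGene00006929, chromosome X, 3403471 to 3408603), had 5862 and 10770.3 CPM on day 1, 91951 and 70373 CPM on day 3 and 28557 and 28823 CPM on day 7. Its day 7 level thus lay between those of the earlier ages (log2FC -1.5 ± 0.22, edgeR adjusted p = 0.000137). vit-6 had 18920.0 and 28899 CPM on day 1, 74351 and 59218 CPM on day 3 and 24229 and 23042 CPM on day 7, so that day 7 and day 1 overlapped (log2FC -1.5 ± 0.18, edgeR adjusted p = 2.29e-05). vit-3 and vit-4 fell further, below their day 1 level, with 503 and 472 CPM on day 7, against 8825 and 6602 CPM on day 3 for vit-3 (log2FC -3.98 ± 0.28, edgeR adjusted p = 8.8e-08) and 822 and 790.0 CPM on day 7, against 13619 and 9578 CPM on day 3 for vit-4 (log2FC -3.85 ± 0.30, edgeR adjusted p = 3.26e-07). These genes are close copies of each other, and the counting program divides shared reads among them, so the split between vit-3, vit-4 and vit-5 is uncertain. The 6 genes together made up 20843 and 20057 TPM (a level that corrects for transcript length) on day 7, against 50413 and 37956 TPM on day 3. All 6 fell under library totals and on the TPM scale as well.

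Of 19 tested fatty acid desaturases, elongases and synthases, none rose and 15 fell (list median -0.97). Of these, 7 had risen before and 8 had fallen before. fat-6, a desaturase that makes oleic acid from stearic acid, had 527 and 549 CPM on day 1, 1796 and 1852 CPM on day 3 and 470.2 and 522 CPM on day 7, and by day 7 it no longer differed from day 1 by the test (log2FC -1.88 ± 0.11, edgeR adjusted p = 1.38e-08). fat-2, which makes linoleic acid and was the list's most abundant member, had 846 and 837 CPM on day 1, 5772 and 5812 CPM on day 3 and 2047 and 2099 CPM on day 7, which left it above day 1 (log2FC -1.48 ± 0.10, edgeR adjusted p = 1.05e-07). fat-5, which desaturates palmitic acid, had 17.98 and 18.1 CPM on day 1, 556 and 501 CPM on day 3 and 202 and 181 CPM on day 7 (log2FC -1.46 ± 0.11, edgeR adjusted p = 1.56e-07). pod-2, the acetyl-CoA carboxylase that starts fatty acid synthesis, had 939 and 945 CPM on day 7, against 1961 and 1726 CPM on day 3 (log2FC -0.97 ± 0.13, edgeR adjusted p = 5.2e-05). Among 21 tested lipases 9 fell and 2 rose, and 7 fell after a rise (list median -0.60). The lysosomal lipase gene lipl-5, the most abundant of them, had 863 and 843 CPM on day 1, 1208 and 1167 CPM on day 3 and 177 and 176 CPM on day 7, so that it ended well below its day 1 level (log2FC -2.75 ± 0.10, edgeR adjusted p = 4.4e-10), and lipl-2 and lips-5 fell (log2FC -1.67 and -2.09). lipl-4 had a log2 fold change of -1.0 (edgeR adjusted p = 0.0246), and leaving out any single day 7 or day 3 library lost that call.

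Antimicrobial families that had risen by day 3 fell as well. Among 108 tested C-type lectins, sugar-binding proteins of which many are secreted by the intestine, 44 fell and 9 rose (list median -0.79). Of those that fell, 24 had risen before. clec-169 had 3.32 and 3.46 CPM on day 1, 15.6 and 14.1 CPM on day 3 and 1.55 and 1.51 CPM on day 7 (log2FC -3.26 ± 0.30, edgeR adjusted p = 1.53e-06). clec-209 had 52.5 and 53.9 CPM on day 7, against 472 and 461 CPM on day 3 (log2FC -3.13 ± 0.11, edgeR adjusted p = 3.28e-10) and clec-15 fell (log2FC -2.6), but each shares its exact counts with another listed gene, so that which copy was transcribed is unknown. clec-63, the most abundant lectin, fell in both intervals, with 4544 and 4093 CPM on day 1, 2523 and 2314 CPM on day 3 and 1199 and 1075 CPM on day 7. Caenopores showed 13 falls and 1 rise among 23 tested members (median -1.15), 8 of them after a rise. spp-5, whose product kills bacteria in the gut lumen and which was the most abundant member, had 956 and 867 CPM on day 1, 1408 and 1642 CPM on day 3 and 331 and 317 CPM on day 7 (log2FC -2.23 ± 0.12, edgeR adjusted p = 6.38e-09). spp-8 and spp-9 fell (log2FC -1.55 and -1.17), and spp-9 still stood far above its day 1 level, with 0.321 and 0.365 CPM on day 1, 155 and 164 CPM on day 3 and 68.6 and 73 CPM on day 7.

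Of 10 tested lysozymes, which cut bacterial cell walls, 5 fell and 3 rose, and lys-1, lys-2, lys-7 and lys-8 fell after a rise. lys-8 had 506 and 501 CPM on day 1, 1039 and 964 CPM on day 3 and 184 and 200.2 CPM on day 7 (log2FC -2.38 ± 0.11, edgeR adjusted p = 1.94e-09). lys-2 had 447 and 419 CPM on day 1, 553 and 575 CPM on day 3 and 53.2 and 66.3 CPM on day 7 (log2FC -3.24 ± 0.13, edgeR adjusted p = 4.86e-10). lys-1 fell (log2FC -2.1). lys-7, the most abundant lysozyme, differed from these in that most of its early rise was kept: it had 67.8 and 88.8 CPM on day 1, 8447 and 9831 CPM on day 3 and 5375 and 5399 CPM on day 7 (log2FC -0.76 ± 0.13, edgeR adjusted p = 0.00053). The list median was -0.32, which became 0.18 under library totals. Of the irg genes (infection response genes, named for their induction by pathogens) 7 of 8 fell and none rose (median -1.86), 5 of them after a rise. irg-4 had 148 and 143 CPM on day 1, 257 and 267 CPM on day 3 and 14.2 and 18.02 CPM on day 7 (log2FC -4.02 ± 0.14, edgeR adjusted p = 3.28e-10), which is far below its day 1 level. irg-5, the most abundant, had 3333 and 2638 CPM on day 1, 3592 and 4446 CPM on day 3 and 1179 and 1223 CPM on day 7 (log2FC -1.74 ± 0.14, edgeR adjusted p = 3.49e-07), and irg-1 and irg-3 fell (log2FC -1.99 and -2.23).

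Epidermal antimicrobial peptides did not share one direction. Of 41 tested members 10 fell and 7 rose, 8 falling after a rise. Their median of -0.21 became 0.11 under library totals and 0.00 on the log2(TPM + 1) scale. fipr-22 had 6.42 and 6.11 CPM on day 1, 96.1 and 86.1 CPM on day 3 and 23.8 and 22.7 CPM on day 7 (log2FC -1.97 ± 0.13, edgeR adjusted p = 6.81e-08), and fipr-26, fip-2 and fip-6 fell (log2FC -3.0, -2.18 and -2.23). abf-2, a defensin-like peptide and the most abundant member, had 324 and 313 CPM on day 7, against 224 and 273 CPM on day 3, a small rise (log2FC 0.36 ± 0.11, edgeR adjusted p = 0.0245) that lost its call when day 3 replicate 1 or either day 7 replicate was left out (log2 fold changes 0.21, 0.32 and 0.38). Of 15 hypodermis markers 6 fell and none rose (median 0.05). Their sums were 467.1 and 477.7 TPM on day 7, against 2861.6 and 2520.6 TPM on day 3, and their part in the changes of these peptides and of col-181 was not tested.

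Digestive and lysosomal proteases showed 15 falls and 3 rises among 24 tested members (median -1.06), with 8 falls after a rise. cpr-1, a cathepsin B-like protease of the gut, had 105 and 121 CPM on day 1, 739 and 645 CPM on day 3 and 155 and 172 CPM on day 7 (log2FC -2.08 ± 0.12, edgeR adjusted p = 1.4e-08). asp-4, a cathepsin D-like protease, had 662 and 659 CPM on day 1, 1822 and 1908 CPM on day 3 and 536 and 564 CPM on day 7 (log2FC -1.76 ± 0.10, edgeR adjusted p = 1.79e-08). Both returned close to their day 1 level. asp-13 and asp-17 fell (log2FC -2.15 and -2.11) to levels below day 1. The most abundant protease, asp-1, had 2314 and 2037 CPM on day 7, against 2255 and 2019 CPM on day 3, so that the groups overlapped (log2FC 0.03, edgeR adjusted p = 0.896), although it had fallen far below day 1 before that (10795 and 9923 CPM on day 1). cpr-2, another cathepsin B-like gene, rose in both intervals, with 3.32 and 1.46 CPM on day 1, 25.3 and 47.1 CPM on day 3 and 743 and 496 CPM on day 7 (log2FC 4.1 ± 0.26, edgeR adjusted p = 4.16e-08).

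Many enzymes of detoxification turned back from a rise. Of 61 tested cytochromes P450, which oxidise fatty acids and foreign compounds, 24 fell and 9 rose, and 20 fell after a rise. Their median of -0.47 became 0.03 under library totals, where the up-then-down class held 13 genes. cyp-35C1 had 23.3 and 21.6 CPM on day 1, 155 and 152 CPM on day 3 and 24.2 and 28.2 CPM on day 7 (log2FC -2.55 ± 0.13, edgeR adjusted p = 5.2e-09). cyp-25A1 had 34.7 and 24.8 CPM on day 1, 156 and 163 CPM on day 3 and 35.6 and 37.3 CPM on day 7 (log2FC -2.13 ± 0.15, edgeR adjusted p = 8.25e-08), so that both were back near day 1. cyp-35A3 and cyp-14A3 fell (log2FC -2.17 and -2.73). cyp-14A5, the most abundant, had 246 and 306 CPM on day 7, against 359 and 345 CPM on day 3 (log2FC -0.35, edgeR adjusted p = 0.0296), and this small fall turned into a rise of 0.16 under library totals and lost its call without day 3 replicate 1 (-0.34), day 3 replicate 2 (-0.39) or day 7 replicate 1 (-0.22). The rise of cyp-13B1 described above ran against the family.

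The UDP-glucuronosyltransferases, which attach sugar to compounds for export, fell into 3 classes. Of 60 tested genes 29 fell and 7 rose (median -0.47, and 0.03 under library totals). Among them 14 fell after a rise, 5 fell late only and 4 rose after a fall. ugt-44 had 56.7 and 59.1 CPM on day 1, 130.1 and 128 CPM on day 3 and 16.8 and 15.6 CPM on day 7 (log2FC -2.99 ± 0.13, edgeR adjusted p = 1.35e-09). ugt-66 had 21.1 and 41.3 CPM on day 1, 88.97 and 102 CPM on day 3 and 7.95 and 7.72 CPM on day 7 (log2FC -3.6 ± 0.27, edgeR adjusted p = 1.78e-07). ugt-41, the most abundant, had 82.9 and 125 CPM on day 1, 416 and 454 CPM on day 3 and 149 and 163 CPM on day 7 (log2FC -1.48 ± 0.15, edgeR adjusted p = 4.64e-06). ugt-22 stands for the late-only falls, with 239 and 252 CPM on day 1, 225 and 227.7 CPM on day 3 and 62.01 and 66.3 CPM on day 7 (log2FC -1.82 ± 0.11, edgeR adjusted p = 1.98e-08), though it overlaps srz-29 on the other strand. ugt-17 moved the opposite way to ugt-41, with 67.4 and 66.1 CPM on day 1, 33.6 and 38.4 CPM on day 3 and 65.8 and 71.2 CPM on day 7 (log2FC 0.93 ± 0.12, edgeR adjusted p = 5.36e-05), and ugt-33 and ugt-13 rose by 1.64 and 0.75.

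Short-chain dehydrogenases showed 15 falls and 3 rises among 28 tested genes (median -0.70), 8 after a rise. dhs-2 had 29.2 and 29.6 CPM on day 1, 94.2 and 96.9 CPM on day 3 and 15.4 and 17.3 CPM on day 7 (log2FC -2.55 ± 0.13, edgeR adjusted p = 6.43e-09). dhs-3, a protein of intestinal lipid droplets and the most abundant member, fell late only, with 274 and 234 CPM on day 1, 279 and 311 CPM on day 3 and 82.7 and 91.9 CPM on day 7 (log2FC -1.75 ± 0.12, edgeR adjusted p = 7.45e-08), and overlaps T02E1.6 on the other strand. Among 33 tested metal-handling genes 13 fell and 3 rose, 5 falling after a rise. Their median of -0.40 became 0.12 under library totals. ftn-1, which encodes ferritin, had 12.5 and 8.20 CPM on day 1, 114 and 115.4 CPM on day 3 and 53.9 and 56.6 CPM on day 7 (log2FC -1.05 ± 0.14, edgeR adjusted p = 6.34e-05). The metallothionein gene mtl-1 kept most of its rise, with 14.3 and 11.03 CPM on day 1, 449 and 551 CPM on day 3 and 303 and 272 CPM on day 7 (log2FC -0.80 ± 0.13, edgeR adjusted p = 0.000251), and the cadmium-responsive genes cdr-2 and cdr-6 fell (log2FC -1.22 and -1.52).

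Glutathione S-transferases, which couple glutathione to reactive compounds, fell mostly without an earlier rise. Of 34 tested genes 15 fell and 2 rose (median -0.66, against 0.08 in the earlier interval). The fall was late only in 5 genes, continued an earlier one in 8 and followed a rise in 2. gst-4, a much used reporter of oxidative stress responses, had 61.6 and 54.5 CPM on day 1, 59.4 and 64.7 CPM on day 3 and 17.1 and 18.3 CPM on day 7 (log2FC -1.8 ± 0.14, edgeR adjusted p = 2.56e-07, test of the difference between intervals adjusted p = 1.05e-05). gst-20 had 15.7 and 16.2 CPM on day 7, against 37.3 and 35.4 CPM on day 3 (log2FC -1.19 ± 0.14, edgeR adjusted p = 2.2e-05) and gst-39 had 19 and 18.8 CPM on day 7, against 36.4 and 44.3 CPM on day 3 (log2FC -1.09 ± 0.15, edgeR adjusted p = 6.54e-05). gst-22 had 9.33 and 5.91 CPM on day 7, against 13.02 and 14.6 CPM on day 3 (log2FC -0.86 ± 0.25, edgeR adjusted p = 0.0161), and its call was lost without day 3 replicate 1, day 3 replicate 2 or day 7 replicate 2 (-0.95, -0.80 and -0.57). gst-1, the most abundant, had already been falling by day 3, with 518 and 476 CPM on day 1, 193 and 209 CPM on day 3 and 123 and 122.2 CPM on day 7.

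Glycolytic genes fell, none of them after a rise. Of 18 tested glycolytic genes 12 fell and 2 rose (median -0.58), 4 late only and 8 in both intervals. The late-only genes were pyk-1 and pyk-2 (pyruvate kinases), gpd-3 (glyceraldehyde-3-phosphate dehydrogenase) and aldo-2 (aldolase). pyk-1 had 535 and 681 CPM on day 1, 647 and 609 CPM on day 3 and 333 and 333 CPM on day 7 (log2FC -0.92 ± 0.12, edgeR adjusted p = 4.3e-05). gpd-3 had 886 and 912 CPM on day 1, 1054 and 969.5 CPM on day 3 and 546 and 553 CPM on day 7 (log2FC -0.88 ± 0.10, edgeR adjusted p = 1.29e-05), but it has a near-identical copy, gpd-2, so the share of reads between both is uncertain. aldo-2, the most abundant of the list, had 1169.9 and 1154 CPM on day 7, against 1796 and 1812 CPM on day 3 (log2FC -0.63 ± 0.10, edgeR adjusted p = 0.000236). These falls were below 2-fold, and those of aldo-2 and pyk-2 lost their call under library totals (-0.13 and -0.25). Over the whole list, 6 genes fell and 4 rose under library totals (median -0.08). On the log2(TPM + 1) scale 9 fell and 3 rose.

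Gluconeogenesis and related pathways turned back from a rise. Of 15 tested genes of the glyoxylate shunt, gluconeogenesis and trehalose metabolism 13 fell and 1 rose (median -0.90), and 8 fell after a rise. pck-1, a phosphoenolpyruvate carboxykinase, had 128 and 162 CPM on day 1, 718 and 661 CPM on day 3 and 255 and 272 CPM on day 7 (log2FC -1.39 ± 0.12, edgeR adjusted p = 8.44e-07). pck-2, its abundant paralog, had 1173 and 1224 CPM on day 7, against 1837 and 1710.1 CPM on day 3 (log2FC -0.57 ± 0.11, edgeR adjusted p = 0.00117), a fall that was not called under library totals (-0.06). The trehalases tre-2 and tre-4 and the trehalose synthase tps-2 fell (log2FC -1.0, -1.63 and -0.90). In the vitamin B12-dependent propionate pathway and methionine cycle, 10 of 17 tested genes fell and 3 rose (median -0.74). The opposite change came before in 5 that fell and in the 3 that rose. cth-2, a cystathionine gamma-lyase, had 561 and 648 CPM on day 1, 1029.9 and 1033 CPM on day 3 and 377 and 423 CPM on day 7 (log2FC -1.37 ± 0.11, edgeR adjusted p = 4.3e-07). pmt-1, which methylates phosphoethanolamine for phosphatidylcholine, had 611 and 618 CPM on day 1, 1026 and 1079 CPM on day 3 and 534 and 530.0 CPM on day 7 (log2FC -0.98 ± 0.10, edgeR adjusted p = 3.39e-06), and pcca-1 and mce-1 of propionate breakdown fell (log2FC -1.07 and -0.93).

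Insulin receptor signaling had members in both directions. Of 17 tested components 6 fell and 2 rose, 4 falling after a rise. Their median of -0.18 became 0.33 under library totals and 0.18 on the log2(TPM + 1) scale. Without germline-dependent genes, which are defined below, 5 of 14 tested components fell and none rose (median -0.15). The 4 genes that fell after a rise were pdk-1, akt-1, akt-2 and daf-16. pdk-1 had 19.3 and 16.9 CPM on day 1, 32.3 and 34.5 CPM on day 3 and 13.8 and 13.03 CPM on day 7 (log2FC -1.31 ± 0.16, edgeR adjusted p = 2.3e-05), the only one of them with a fall above 2-fold. daf-16 had 272 and 288 CPM on day 7, against 371 and 354 CPM on day 3 (log2FC -0.37 ± 0.10, edgeR adjusted p = 0.0103), akt-1 had 99.8 and 91.5 CPM on day 7, against 118 and 137 CPM on day 3 (edgeR adjusted p = 0.0133) and akt-2 had 41.3 and 38.2 CPM on day 7, against 50.2 and 53.5 CPM on day 3 (edgeR adjusted p = 0.0389). These 3 calls depend on the processing: the log2 fold changes of -0.37, -0.41 and -0.38 became 0.14, 0.09 and 0.12 under library totals. The call of daf-16 was lost without day 3 replicate 1, day 7 replicate 1 or day 7 replicate 2 (-0.35, -0.35 and -0.42), that of akt-1 without day 3 replicate 2 or day 7 replicate 2 (-0.31 and -0.36), and that of akt-2 without any 1 of the 4 libraries (-0.46 to -0.34). daf-2 had 149.6 and 172 CPM on day 7, against 188 and 186 CPM on day 3 (log2FC -0.22, edgeR adjusted p = 0.161). The dod genes, named for lying downstream of daf-16, showed 9 falls and no rise among 10 tested members (median -1.49), 5 after a rise. dod-24 had 350.5 and 268 CPM on day 1, 432 and 528 CPM on day 3 and 133 and 123 CPM on day 7 (log2FC -1.9 ± 0.14, edgeR adjusted p = 1.79e-07), dod-6 had 88.2 and 109 CPM on day 1, 1157 and 1223 CPM on day 3 and 618 and 675 CPM on day 7 (log2FC -0.88 ± 0.12, edgeR adjusted p = 4.47e-05), and dod-19, the most abundant, had 1506 and 1509.6 CPM on day 1, 2945 and 2919.9 CPM on day 3 and 1718 and 1688 CPM on day 7 (log2FC -0.78 ± 0.10, edgeR adjusted p = 3.96e-05). lin-39, the homeobox gene at the centre of the study, had 13.5 and 12.7 CPM on day 7, against 13.2 and 12.1 CPM on day 3 (log2FC 0.05, edgeR adjusted p = 0.869), so that its groups overlapped.

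Several further families had turn-back members without a common direction. Of 46 tested transthyretin-like genes, which encode small secreted proteins, 15 fell and 7 rose, 10 falling after a rise. Their median of -0.07 became 0.44 under library totals, 0.26 on the log2(TPM + 1) scale, 0.05 with upper-quartile factors and 0.01 without germline-dependent genes. ttr-41 had 176 and 152 CPM on day 1, 342 and 437 CPM on day 3 and 186 and 174 CPM on day 7 (log2FC -1.11 ± 0.13, edgeR adjusted p = 1.36e-05), while ttr-51, the most abundant, had 1623 and 1741 CPM on day 7, against 1208 and 1344 CPM on day 3, a rise (log2FC 0.40 ± 0.10, edgeR adjusted p = 0.00968) that lost its call without day 3 replicate 1 (0.31), day 7 replicate 1 (0.43) or day 7 replicate 2 (0.34). ttr-46 and ttr-48 fell (log2FC -1.1 and -1.12). Of 27 tested astacin proteases 7 fell and 1 rose, 4 after a rise (median 0.00, which was 0.51 under library totals and 0.23 on the log2(TPM + 1) scale), and nas-3 had 0.642 and 0.820 CPM on day 1, 14.3 and 12.2 CPM on day 3 and 3.11 and 4.54 CPM on day 7 (log2FC -1.78 ± 0.29, edgeR adjusted p = 0.000296). Of 61 tested potassium channels 12 fell (19.7%, near the 18.4% of all genes) and 4 rose (6.56%, against 14.2%), with 6 falling late only. Their median of -0.06 became 0.45 under library totals and 0.18 on the log2(TPM + 1) scale. It was 0.06 with upper-quartile factors and 0.02 without germline-dependent genes. twk-34 had 21.5 and 19.1 CPM on day 1, 21.96 and 25.1 CPM on day 3 and 11.2 and 10.2 CPM on day 7 (log2FC -1.14 ± 0.18, edgeR adjusted p = 0.000214) and overlaps Y6E2A.1 on the other strand. Among 54 tested genes of the MATH and BTB families, which include adaptors of ubiquitin ligases, 9 fell and 7 rose, 4 falling late only. The shares that fell and rose were near the 18.4% and 14.2% of all genes. The list median of 0.19 became -0.15 without germline-dependent genes and -0.03 with counts thinned to the smallest library. math-14 had 15.9 and 13.9 CPM on day 1, 15.1 and 16.9 CPM on day 3 and 6.56 and 6.66 CPM on day 7 (log2FC -1.27 ± 0.21, edgeR adjusted p = 0.000336).

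Most tested genes for DNA replication and mitosis, and most histone genes, rose in the later interval. Of 38 tested DNA replication genes 25 rose and none fell (median 0.96, against -0.51 in the earlier interval). The rise came in 9 of them late only and 10 after a fall. mcm-4, a subunit of the replicative helicase, had 6.63 and 6.02 CPM on day 1, 7.15 and 7.55 CPM on day 3 and 16.6 and 18.6 CPM on day 7 (log2FC 1.26 ± 0.21, edgeR adjusted p = 0.00038). pole-1, the catalytic subunit of DNA polymerase epsilon, had 20.3 and 20.6 CPM on day 1, 18 and 17.4 CPM on day 3 and 37.5 and 33.9 CPM on day 7 (log2FC 1.01 ± 0.15, edgeR adjusted p = 0.000112). mcm-5, of the same helicase, and pcn-1, the sliding clamp PCNA, had turned back: mcm-5 had 11.7 and 9.75 CPM on day 1, 3.83 and 5.63 CPM on day 3 and 12.6 and 13.8 CPM on day 7 (log2FC 1.49 ± 0.25, edgeR adjusted p = 0.000454). pcn-1 had 23.6 and 15.8 CPM on day 1, 10.5 and 10.6 CPM on day 3 and 24.01 and 27.4 CPM on day 7 (log2FC 1.29 ± 0.21, edgeR adjusted p = 0.000294). rpa-4, the most abundant of the list, had 27.5 and 27.6 CPM on day 7, against 25.9 and 22.6 CPM on day 3 (log2FC 0.18, edgeR adjusted p = 0.385).

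Of 36 tested mitotic kinases, cyclins and kinetochore genes 28 rose and none fell (median 1.22, against -0.03 in the earlier interval). Of these rises 8 were late only and 7 followed a fall. cyb-1, a cyclin B, had 7.92 and 7.02 CPM on day 1, 7.15 and 5.77 CPM on day 3 and 18.5 and 19.99 CPM on day 7 (log2FC 1.57 ± 0.22, edgeR adjusted p = 6.77e-05). plk-1, the polo-like kinase, had 13.8 and 12.5 CPM on day 1, 7.40 and 7.69 CPM on day 3 and 24.9 and 26.4 CPM on day 7 (log2FC 1.76 ± 0.18, edgeR adjusted p = 4.84e-06), and cdk-1, the mitotic cyclin-dependent kinase, had 7.28 and 7.02 CPM on day 1, 5.23 and 2.88 CPM on day 3 and 13.7 and 12.1 CPM on day 7 (log2FC 1.65 ± 0.28, edgeR adjusted p = 0.00047). The kinetochore genes hcp-1, knl-1 and bub-1 rose by 1.57, 1.22 and 1.21 on the log2 scale. Histone genes followed: 39 of 65 rose and 5 fell (median 1.1, against -0.05 before). Of the rises 10 were late only, 6 followed a fall and 23 came in both intervals. Many histone genes are near-identical copies, and with identical counts taken once, 27 of 45 rose, 5 fell and 6 rose late only. his-59 had 54.9 and 38.3 CPM on day 1, 48.4 and 48.5 CPM on day 3 and 183 and 168 CPM on day 7 (log2FC 1.86 ± 0.15, edgeR adjusted p = 3.81e-07), and his-72, a replication-independent histone H3.3 gene, had 66.6 and 58.5 CPM on day 1, 53.0 and 48.3 CPM on day 3 and 95.5 and 101.5 CPM on day 7 (log2FC 0.96 ± 0.12, edgeR adjusted p = 2.99e-05). Histone genes together made up 36645 and 37200 TPM on day 7, against 11901 and 11473 TPM on day 3. How fully the libraries captured histone transcripts was not tested.

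Transcripts of germ cells moved in the same direction. Of 17 germline markers 13 rose and none fell (median 1.11 on day 7 against day 3, 1.76 on day 3 against day 1). Their summed level was 444.5 to 463.5 TPM on day 7, against 212.3 to 257.9 TPM on day 3 and 3856.3 to 4155.0 TPM in wild-type worms of day 1. Of 14 oocyte markers 12 rose and none fell, with sums of 155.9 to 168.9 TPM on day 7, against 44.9 to 46.6 TPM on day 3. Of 49 sperm markers 8 could be tested and 2 rose, with sums of 155.5 to 301.0 TPM on day 7, against 103.9 to 118.7 TPM on day 3, and 10 were at 0 counts on day 7, against 18 on day 3. None of the germline or oocyte markers was at 0 counts at any age. Genes that depend on the germline (log2 fold change below -2 and adjusted p under 0.05 in *glp-4* against wild-type worms of day 1) made up 15.1% of the genes tested but 34.9% of the late-only genes that rose and 42.5% of those that rose in both intervals. Their share was 0.587% among late-only genes that fell, 2.88% among up-then-down genes and 19.8% among down-then-up genes. They included 34 of the 38 replication genes and 33 of the 36 mitotic genes, but only 2 of the 65 histone genes. The part of germ cells in the late rises was not tested. In RNA of whole worms a change in the number of cells of a type and a change in RNA per cell cannot be told apart.

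**Figure D4:**
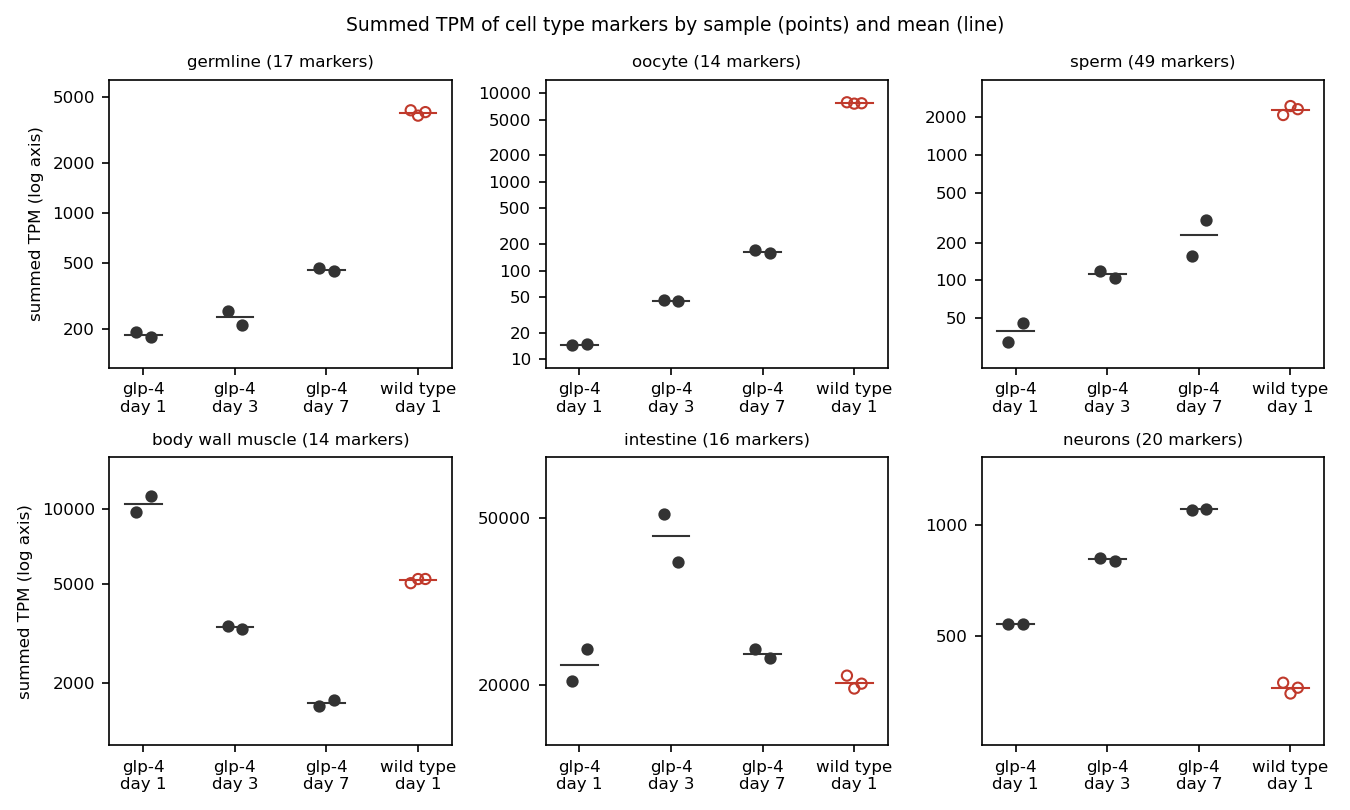
Summed TPM (vertical log axes with differing ranges) of 6 marker lists in each *glp-4* sample of day 1, day 3 and day 7 (filled points) and in wild-type worms of day 1 (open points), with lines at the group means. Germline and oocyte sums on day 7 lie above those on day 3 in every sample and far below wild type. The sum for body wall muscle falls at each age, and that for intestine, which includes vitellogenins, peaks on day 3. That peak follows the 6 vitellogenins, which alone sum to 8356.7 and 13679.8 TPM on day 1. Their sums are 50412.6 and 37955.8 TPM on day 3 and 20843.3 and 20056.9 TPM on day 7. The sums carry no TMM factors.

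Most chaperonin and ribosome biogenesis genes rose in the later interval. Of the 8 subunits of the cytosolic chaperonin, which folds actin and tubulin, 6 rose and none fell (median 0.42, against -1.03 in the earlier interval). In 5 subunits a fall preceded the rise. cct-5 had 196 and 222 CPM on day 1, 108 and 97.5 CPM on day 3 and 160.5 and 188 CPM on day 7 (log2FC 0.76 ± 0.12, edgeR adjusted p = 0.000219). cct-1 had 259 and 245 CPM on day 1, 126 and 121 CPM on day 3 and 189.8 and 181 CPM on day 7 (log2FC 0.59 ± 0.10, edgeR adjusted p = 0.000508). cct-4, the most abundant, rose late only, with 182 and 181 CPM on day 1, 164 and 155 CPM on day 3 and 225 and 237 CPM on day 7 (log2FC 0.53 ± 0.10, edgeR adjusted p = 0.000962). cct-6 rose by 0.33, a call lost when any 1 of the 4 day 7 and day 3 libraries was left out (0.30 to 0.34). Ribosome biogenesis genes showed 18 rises and 1 fall among 33 tested (median 0.48, against -0.66), 12 after a fall. nucl-1, which encodes nucleolin, had 202 and 179.9 CPM on day 1, 113 and 104.3 CPM on day 3 and 202 and 194 CPM on day 7 (log2FC 0.86 ± 0.11, edgeR adjusted p = 3.1e-05), and pro-2 and rrp-1 rose by 0.88 and 1.01. The 1 member that fell was ncl-1, a repressor of nucleolar size and the most abundant of the list. It had 496 and 483 CPM on day 7, against 758 and 652 CPM on day 3 (log2FC -0.53 ± 0.11, edgeR adjusted p = 0.00246). Of 81 proteins of the cytosolic ribosome 5 rose and 4 fell (median -0.06, after -0.90), but 74 were called higher under library totals. Among translation factors 8 of 33 rose and 1 fell (median 0.11), and among aminoacyl-tRNA synthetases 7 of 35 rose and 1 fell (median 0.14).

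Of 68 tested splicing factors 16 rose and none fell (median 0.30, against -0.37), 8 after a fall, and 29 of the 68 depend on the germline by the definition above. snu-13, a protein of the U4 small nuclear RNP and the most abundant member, had 64.2 and 58.4 CPM on day 1, 29.9 and 25.7 CPM on day 3 and 53.4 and 49.7 CPM on day 7 (log2FC 0.89 ± 0.13, edgeR adjusted p = 0.000162). prp-21 had 29.96 and 28.3 CPM on day 1, 12.5 and 14.7 CPM on day 3 and 25.9 and 24.8 CPM on day 7 (log2FC 0.90 ± 0.16, edgeR adjusted p = 0.000621). The mitochondrial ribosome regained little: of 70 tested proteins 6 rose and 1 fell (median 0.10, against -1.39), all 6 after a fall. mrps-5 had 47.5 and 48.8 CPM on day 1, 22.6 and 16.3 CPM on day 3 and 36.96 and 38.8 CPM on day 7 (log2FC 0.96 ± 0.16, edgeR adjusted p = 0.000375). The rises of mrps-28, mrps-7 and mrpl-49 lay between 0.85 and 1.09, and all 3 calls were lost without day 3 replicate 1 (1.11, 0.62 and 0.66) or day 7 replicate 2 (0.83, 0.89 and 0.84). Under library totals 33 of the 70 were called higher. In fatty acid activation and oxidation 16 of 58 tested genes fell and 9 rose (median -0.16, but 0.34 under library totals and 0.09 on the log2(TPM + 1) scale), but 4 rose after a fall. These were acs-7, an acyl-CoA synthetase, cpt-4, a carnitine palmitoyltransferase, acox-1.1, a peroxisomal acyl-CoA oxidase, and acdh-9, an acyl-CoA dehydrogenase. cpt-4 had 74.5 and 66.8 CPM on day 1, 41.1 and 42.4 CPM on day 3 and 93.8 and 115.4 CPM on day 7 (log2FC 1.33 ± 0.13, edgeR adjusted p = 2.93e-06). acox-1.1 had 109 and 113 CPM on day 1, 92.9 and 87.2 CPM on day 3 and 183 and 188 CPM on day 7 (log2FC 1.05 ± 0.10, edgeR adjusted p = 3.26e-06). The rise of acdh-9, 0.68, lost its call without day 3 replicate 1 (0.54).

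Most oocyte and eggshell genes rose in the later interval. Of 35 tested genes 23 rose and 1 fell (median 1.1, after 1.96 in the earlier interval), 15 in both intervals and 4 after a fall. By the definition above, 26 of the 35 depend on the germline. Without germline-dependent genes 2 of 9 rose and 1 fell (median 0.10). lin-41, a translational regulator of oocyte growth, had 39.2 and 36.1 CPM on day 1, 14.04 and 15.7 CPM on day 3 and 31.96 and 25.1 CPM on day 7 (log2FC 0.94 ± 0.17, edgeR adjusted p = 0.000584). puf-12 had 78.7 and 77.4 CPM on day 1, 55.8 and 52.4 CPM on day 3 and 113 and 108 CPM on day 7 (log2FC 1.03 ± 0.11, edgeR adjusted p = 6.98e-06). It was placed in this list by its symbol, and whether it acts in oocytes was not examined. perm-4, an eggshell permeability barrier gene and by far the most abundant member, had 8154 and 8078 CPM on day 7, against 8041 and 8025 CPM on day 3 (log2FC 0.01, edgeR adjusted p = 0.953) after 643 and 928 CPM on day 1.

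Under TMM scaling, other pathways neither turned back nor waited for the later interval. Of 52 tested sarcomere genes 37 fell (median -0.64, after -1.49), 36 of them in both intervals. Under library totals 15 sarcomere genes fell and 8 rose, and on the log2(TPM + 1) scale 17 fell and 3 rose. Likewise 20 of 25 citric acid cycle genes fell (median -0.59), all in both intervals, but 7 fell and 4 rose under library totals, and 9 fell and 2 rose on the log2(TPM + 1) scale. In the respiratory chain 39 of 69 nuclear genes fell, 38 of them in both intervals (median -0.46, but 0.05 under library totals, where 3 fell and 13 rose). In the vacuolar proton pump 17 of 21 subunits fell, all in both intervals (median -0.45, but 0.06 under library totals, where 1 fell and 3 rose). All 5 tested pud genes fell (median -2.69). Body wall muscle markers fell with the sarcomere genes (13 of 14, median -1.23), with sums of 1607.6 and 1696.4 TPM on day 7, against 3388.6 and 3291.5 TPM on day 3, and their part in that result was not tested. In the proteasome, 1 of 31 genes fell and none rose (median -0.04). Under library totals 27 proteasome genes rose (median 0.47), 10 late only and 11 after a fall. In synaptic vesicle release 1 of 28 fell and none rose, but under library totals 20 rose. On the log2(TPM + 1) scale 12 proteasome and 5 synaptic vesicle genes rose.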

How the data were processed

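RNA of whole *glp-4(bn2)* adults was sequenced on day 1, day 3 and day 7. Per the labels, the libraries were made with a kit that does not mark strand. The deposited tables hold estimated counts and TPM per gene, which the authors obtained with kallisto, and the submitters' processing notes name ce11 and WBcel235 as the builds. kallisto divides reads among near-identical transcripts, so values of close paralogs are uncertain. The estimated counts, rounded to whole numbers, were used here, although the plan had assumed counts. Every per-sample column was mapped to a sample by its label.

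Genes were filtered with filterByExpr (minimum count 10) and tested with the quasi-likelihood test of edgeR 4.0.16 in R 4.3.3 with TMM factors, in 1 fit of the 6 *glp-4* samples, with Benjamini-Hochberg adjustment. The test of the difference between intervals was a contrast of the same fit. Standard errors were derived from the test: the absolute log2 fold change before edgeR's shrinkage was divided by the square root of the F statistic. limma 3.58.1 was applied to log2(TPM + 1) and DESeq2 1.42.0 to the counts as alternatives. Positions are from the WBcel235 annotation, release 115, which placed 19988 of 19997 genes. The 12 samples were fitted together for the comparison of *glp-4* with wild-type worms on day 1.

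The members and lists were chosen with earlier results of these data known. Genes were named by rule: at a mean of at least 5 CPM and an adjusted p under 0.05, up to 5 by size of change in each class, whose day 7 and day 3 samples also could not overlap, and up to 4 in each list and class, plus the most abundant member of each list. lin-39, daf-2 and daf-16 were added for their role in the study. Samples with the same replicate number did not deviate together (Pearson's r over genes -0.0141, 0.0278 and -0.00775 for the 3 pairs of ages), so the numbers were not treated as pairs. Sequences are not shown, as none were used here.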

Additional observations from a re-analysis of the deposited data

How the results depend on the processing

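Counts are given as genes higher, genes lower, late-only higher, late-only lower, up then down, and down then up, in that order, against 1878, 2435, 252, 341, 939 and 384. With library totals they were 5726, 1055, 1153, 137, 459 and 1263. On the TPM scale with limma they were 3891, 1264, 681, 172, 535 and 659 at log2(TPM + 1), and 3546, 1227, 579, 166, 496 and 658 at log2(TPM + 0.1). Without a filter at log2(TPM + 1), the first 5 were 3777, 1179, 570, 153 and 516. The DESeq2 test gave 1223 higher, 151 late-only higher and 226 down-then-up genes. An adjusted p of 0.01 left 1040, 119 and 156 of these. A change of at least 2-fold left 917 higher, 1056 lower, 326 up-then-down and 99 down-then-up genes, and without the test between intervals 795 and 606 genes were late only. The cause of these differences was not tested.

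With 1 library left out, the ranges were 966 to 2342 higher, 1814 to 2844 lower, 91 to 338 late-only higher, 254 to 450 late-only lower, 647 to 1062 up-then-down and 173 to 470 down-then-up genes. The count of higher genes was lowest without day 3 replicate 1 (966) and was 983 without day 3 replicate 2, 1057 without day 7 replicate 2 and 1114 without day 7 replicate 1. A lone sample is then assumed to vary like the other ages. With a replicate block the counts were 1950, 2492, 264, 362, 967 and 418. Of 187 named genes with a call, 40 lost it in at least 1 of 20 alternatives. Values that turned direction were, under library totals, cyp-14A5 0.16, akt-1 0.09, akt-2 0.12, daf-16 0.14, ftt-2 0.08 and daf-2 0.29, and daf-16 was at 0.00 in all 3 limma versions. Day 7 libraries were the shallowest, which limits low-count genes. Thinned to the smallest library, 1756 genes were higher and 2204 lower.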

Other observations

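Several families of the nervous system and of intracellular pathogen responses had members in both directions. Of 136 tested chemoreceptors 30 were higher and 10 lower on day 7 than on day 3 (median log2 fold change 0.41, against 0.01 over all genes). Of 27 pals genes, a family induced by intracellular infection, 11 were higher and 3 lower (median 0.74). Among insulin-like peptides 6 of 21 were higher and 2 lower (median 0.37), and among nlp neuropeptides 10 of 54 were higher and 8 lower. Of 17 tested neuron markers none was higher and 4 were lower (median 0.07), and of 61 potassium channels 4 were higher and 12 lower. In synaptic vesicle release 1 of 28 genes was lower and none higher, but under library totals 20 were higher. The share of all tested genes called was 14.2% higher and 18.4% lower, and whether these families differ from it was not tested.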
